A study of Mus musculus with 40 samples.

Results

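The genes described here code for splicing and RNA-binding factors, namely the hnRNP proteins, the SR proteins, SF3A and SF3B subunits, U2AF, the Sm and other small nuclear ribonucleoprotein (snRNP) proteins, the LSm proteins, the PRPF proteins and the numbered RBM proteins. They were chosen by symbol, as every annotated gene whose name begins with Hnrnp, Srsf, Sf3a, Sf3b, Snrp, Snrnp, Prpf or U2af, or with Lsm or Rbm followed by a digit. On the array 73 symbols met that rule, and 44 of them had values in at least 3 mice of each of the 4 groups. These 44 are the members, among 5297 genes and unnamed probes that passed the same requirement, of which 3926 had a name. The other 29 symbols had too few values and were not tested.

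The study measured bone marrow of DBA/2 mice, an inbred strain, in 4 groups of 5 mice. Control mice were untreated, and the other groups had received 83 mg/kg cyclophosphamide into the peritoneum 1, 2 or 5 days before the marrow was taken. Cyclophosphamide is a drug whose active products cross-link DNA and damage dividing cells. Each mouse was hybridised on 2 arrays, its RNA labelled with Cy5 against a common Cy3 reference pool of marrow. The labels call that pool untreated in 1 field and give cyclophosphamide as its treatment in another, which was not settled here. The pool cancels in differences between groups, while each value of a mouse depends on it. Values below are ratios of mouse over pool on a logarithmic scale. Its base, not given in the sources used here, was taken as 2, and with natural logarithms every fold would be larger than stated. The mean of the arrays of a mouse is its value, and n counts mice. Whole marrow was measured, so fewer cells of a type and less RNA per cell cannot be told apart.

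Splicing removes introns from newly made transcripts and is carried out by the spliceosome, which assembles on each intron from snRNPs. Each snRNP holds a small nuclear RNA inside a ring of Sm or LSm proteins together with proteins of its own, U2AF and the SF3 complexes recognise the 3′ splice site and branch point, and PRPF proteins build the tri-snRNP and the catalytic centre. SR proteins mostly promote and hnRNP proteins often oppose the use of an exon, and many RBM proteins shift that choice. In marrow this machinery is known for SF3B1, SRSF2 and U2AF1, which are recurrently mutated in myelodysplastic syndromes.

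Promoter sequences are shown for the 2 members with the largest falls on day 1 (Srsf2 and Hnrnpr), for the member with the largest rise (Rbm18) and for a pair whose promoters hold an E2F word (U2af1 and Snrnp25), all picked after their values were seen. Each is the 250 bases before a RefSeq transcription start in GRCm38.p6, written 5′ to 3′ on the strand of the gene, with capitals marking matches to the motifs searched. Srsf2 lies at chr11:116853095-116853344 on the minus strand, Hnrnpr (1 of several starts) at chr4:136311348-136311597 on the plus strand, U2af1 (1 of several starts) at chr17:31658765-31659014 on the minus strand, Snrnp25 at chr11:32205165-32205414 on the plus strand and Rbm18 at chr2:36136705-36136954 on the minus strand.
Srsf2: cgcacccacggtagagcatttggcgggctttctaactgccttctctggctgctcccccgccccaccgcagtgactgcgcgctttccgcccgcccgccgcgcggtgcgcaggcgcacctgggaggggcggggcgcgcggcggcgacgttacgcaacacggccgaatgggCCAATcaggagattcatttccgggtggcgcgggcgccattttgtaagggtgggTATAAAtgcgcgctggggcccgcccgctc
Hnrnpr: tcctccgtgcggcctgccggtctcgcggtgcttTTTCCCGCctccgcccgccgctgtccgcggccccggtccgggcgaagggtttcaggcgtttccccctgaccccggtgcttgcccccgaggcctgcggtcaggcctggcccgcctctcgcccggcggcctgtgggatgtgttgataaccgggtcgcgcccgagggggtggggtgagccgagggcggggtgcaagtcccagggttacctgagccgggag
U2af1: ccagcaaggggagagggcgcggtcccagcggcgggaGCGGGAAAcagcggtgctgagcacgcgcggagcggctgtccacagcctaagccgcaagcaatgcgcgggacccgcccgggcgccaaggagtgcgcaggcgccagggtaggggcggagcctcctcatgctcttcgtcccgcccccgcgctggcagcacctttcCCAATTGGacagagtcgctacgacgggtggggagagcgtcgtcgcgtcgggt
Snrnp25: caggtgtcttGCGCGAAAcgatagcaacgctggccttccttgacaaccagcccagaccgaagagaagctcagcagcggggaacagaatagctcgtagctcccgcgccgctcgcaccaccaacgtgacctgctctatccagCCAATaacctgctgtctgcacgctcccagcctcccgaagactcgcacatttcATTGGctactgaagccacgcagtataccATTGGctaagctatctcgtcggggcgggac
Rbm18: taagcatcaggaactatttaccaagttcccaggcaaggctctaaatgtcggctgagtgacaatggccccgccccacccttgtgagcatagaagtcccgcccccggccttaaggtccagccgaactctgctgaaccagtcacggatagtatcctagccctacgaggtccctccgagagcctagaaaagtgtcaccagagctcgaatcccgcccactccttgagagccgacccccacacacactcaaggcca

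The Srsf2 promoter held a CCAAT box at positions -82 to -78 and a TATAAA at -29 to -24, counting the base before the start as -1. The Hnrnpr window shown held TTTCCCGC at -217 to -210, and the window of its other start, at chr4:136310692-136310941, held no E2F word and 4 CCAAT boxes. A gene with several starts was counted as holding a word if any of its windows did. U2af1 had GCGGGAAA, the same E2F word on the other strand, at -214 to -207, and overlapping CCAAT matches of both strands from -52 to -45. Snrnp25 had an E2F word, read on the other strand, at -240 to -233 and CCAAT matches that begin at -110, -58 and -30. No match to the words searched was found for Rbm18. Promoters were found for 38 of the 44 members, and 7 of these had several starts. The E2F words TTTCCCGC, TTTGGCGC or TTTCGCGC, on either strand, occurred in 5 of the 38 (13.2%), which were Hnrnpr, U2af1, Snrnp25, Snrpa and Srsf10, and in 2.71% of 3177 tested genes with a promoter. Their share was similar in the 14 members called lower on day 1 (14.3%) and in the 24 other members (12.5%). CCAAT occurred in 36.8% of members and 41% of tested genes, the ETS core CCGGAAG in 23.7% and 13.4%, TATAAA in 10.5% and 11.1%, the E-box CACGTG in 7.89% and 9.73%, and a CG-rich palindrome found in many promoters in 2.63% and 0.818%. The NRF1 and YY1 words matched none of the members' windows and 2.17% and 0.346% of those of tested genes. In Snrpa alone among these promoters, matches to different motifs overlapped, an E2F word with an E-box. A match is a description of letters, not of binding.

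Of 13443 probes, 4079 to 7977 had a value on each array. Repeat arrays of the same mouse had correlations of 0.683 to 0.957 over probes. Control mouse 4 and day 1 mouse 1 were least like their own groups, with mean correlations of 0.284 and 0.372 to their group mates, and results are also given without these 2 mice. The labels describe the mice as biological replicates, and a number shared between groups was not used to pair mice. The median standard error of a day 1 difference was 0.13.

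On day 1 after cyclophosphamide, 17 of the 44 members were lower than in control and 2 were higher at an adjusted p under 0.05 (limma, Benjamini-Hochberg over all features tested). Over all 5297 features 19.1% were called, 8.38% lower and 10.7% higher. The members' median difference was -0.32, against -0.015 over all features, and 34 of the 44 differences were below 0. On day 2, 10 members were lower and 2 higher, where 19.2% of all features were called, 9.61% in each direction. The median over members was then -0.10, against -0.022 over all features. On day 5 limma called 0 of the 44 members, with 2.62% of all features called, and 5 had an unadjusted p under 0.05 (11.4%, against 11.0% of all features). The median on day 5 was -0.029. A difference anywhere among the 4 groups was called for 21 members by the F test, where 30.7% of all features were called. Of the 44, 15 passed in no comparison.

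**Figure D1:**
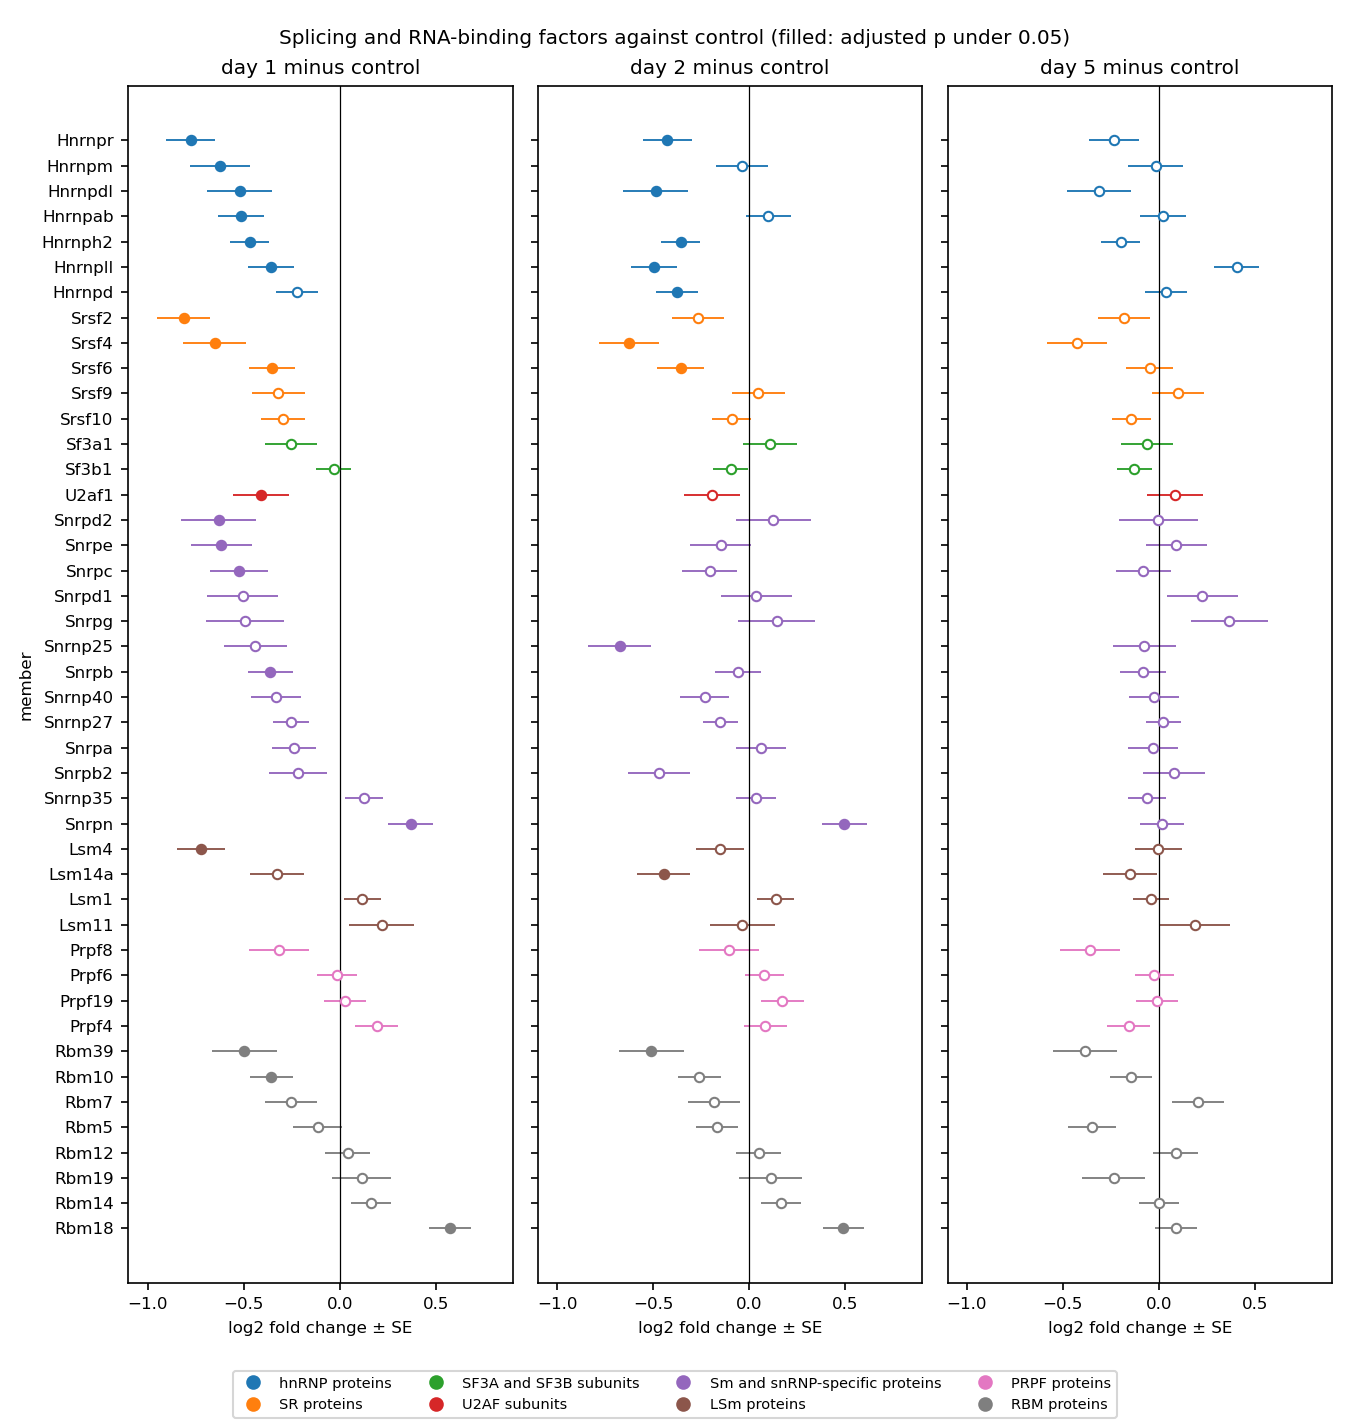
Log2 fold change ± SE of each of the 44 members against control on days 1, 2 and 5, grouped by role, with filled points for an adjusted p under 0.05. On day 1 most hnRNP, SR and Sm points lie left of 0 and 19 are filled, on day 2 the number is 12 and on day 5 it is 0.

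By day, 7 members were lower on both days 1 and 2, namely Hnrnpdl, Hnrnph2, Hnrnpll, Hnrnpr, Rbm39, Srsf4 and Srsf6. Another 10 were called lower on day 1 and not on day 2 (Hnrnpab, Hnrnpm, Lsm4, Rbm10, Snrpb, Snrpc, Snrpd2, Snrpe, Srsf2 and U2af1), and 3 on day 2 and not on day 1 (Hnrnpd, Lsm14a and Snrnp25). Rbm18 and Snrpn were higher on both days. In 11 members all measured day 1 mice lay below all measured control mice, and in 1 all lay above, against 6.1% and 6.95% of all features. Among the 11, Hnrnpm, Snrpa, Snrpb2 and Srsf10 lacked values in some of these mice, and Snrpa, Snrpb2 and Srsf10 were not called. On day 2 these counts were 7 and 2, against 9.4% and 9.59%, with values missing in some mice for Snrpb2 (not called), Srsf4 and Snrpn. Groups with fewer measured mice separate more easily. Days 1 and 2 are compared with the same control mice.

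Srsf2, Srsf4 and Srsf6, 3 of the 5 SR proteins measured, fell on day 1, where 8.38% of all features were lower, and the 5 had a median difference of -0.35. Srsf2 binds exonic enhancers and aids recognition of the splice sites beside them. Its values were 0.19, -0.022, 0.43, -0.019 and 0.059 in control mice 1 to 5 and -0.62, -1.12, -0.74, -0.44 and -0.50 in day 1 mice 1 to 5. On later days it read -0.50, 0.14, -0.39, 0.016 and 0.034 in day 2 mice 1 to 5 and 0.068, -0.085, -0.070, -0.21 and 0.016 in day 5 mice 1 to 5. All day 1 mice lay below all controls, and on day 2 mice 1 and 3 were still low while the other day 2 mice were within the control range. Srsf2 fell to 57.0% of control on day 1 (log2 fold change -0.81 ± 0.14, adjusted p = 0.000635), and the day 2 difference was -0.27 ± 0.14, adjusted p = 0.177. From day 1 to day 2 it rose (0.54 ± 0.14, adjusted p = 0.0322), a call that was lost without day 1 mice 2 and 3 and day 2 mice 2, 4 and 5 in turn (0.51, adjusted p = 0.0980 in the weakest case). A second Srsf2 probe had no value in any mouse.

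Srsf4, a larger SR protein, had no value in mouse 3 of the control and day 1 groups. It read -0.035, -0.0069, 0.41 and 0.25 in control mice 1, 2, 4 and 5 and -0.034, -0.72, -0.46 and -0.77 in day 1 mice 1, 2, 4 and 5. Afterwards the values were -0.67, -0.34, -0.85, -0.35 and -0.16 in day 2 mice 1 to 5 and -0.17, -0.082, -0.39, -0.28 and -0.44 in day 5 mice 1 to 5. Day 1 mouse 1 lay within the control range and the other 3 measured day 1 mice below it, while all day 2 and day 5 mice were below every control mouse. The differences were -0.65 ± 0.16, adjusted p = 0.00976 on day 1, -0.63 ± 0.16, adjusted p = 0.00789 on day 2 and -0.43 ± 0.16, adjusted p = 0.210 on day 5. One of its array values equalled a ratio that many other probes of that array shared. Srsf6, which also acts on alternative exons, fell on day 1 (-0.35 ± 0.12, adjusted p = 0.0436) and day 2 (-0.36 ± 0.12, adjusted p = 0.0401). Both Srsf6 calls were weak: day 1 was lost without any of control mice 1, 2, 3 and 4, day 1 mice 2, 3 and 5 and day 5 mice 2 and 3 (-0.26, adjusted p = 0.146 at the weakest), and day 2 without any of control mice 2, 3 and 4 and day 2 mice 1, 3 and 5 (-0.32, adjusted p = 0.106 at the weakest). In other settings of the processing or fit, the day 1 call was lost in 4 of 14 and the day 2 call in 2 of 14. The remaining SR proteins, Srsf9 and the splicing repressor Srsf10, differed on day 1 by -0.32 (adjusted p = 0.103) and -0.29 (adjusted p = 0.0781).

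**Figure D2:**
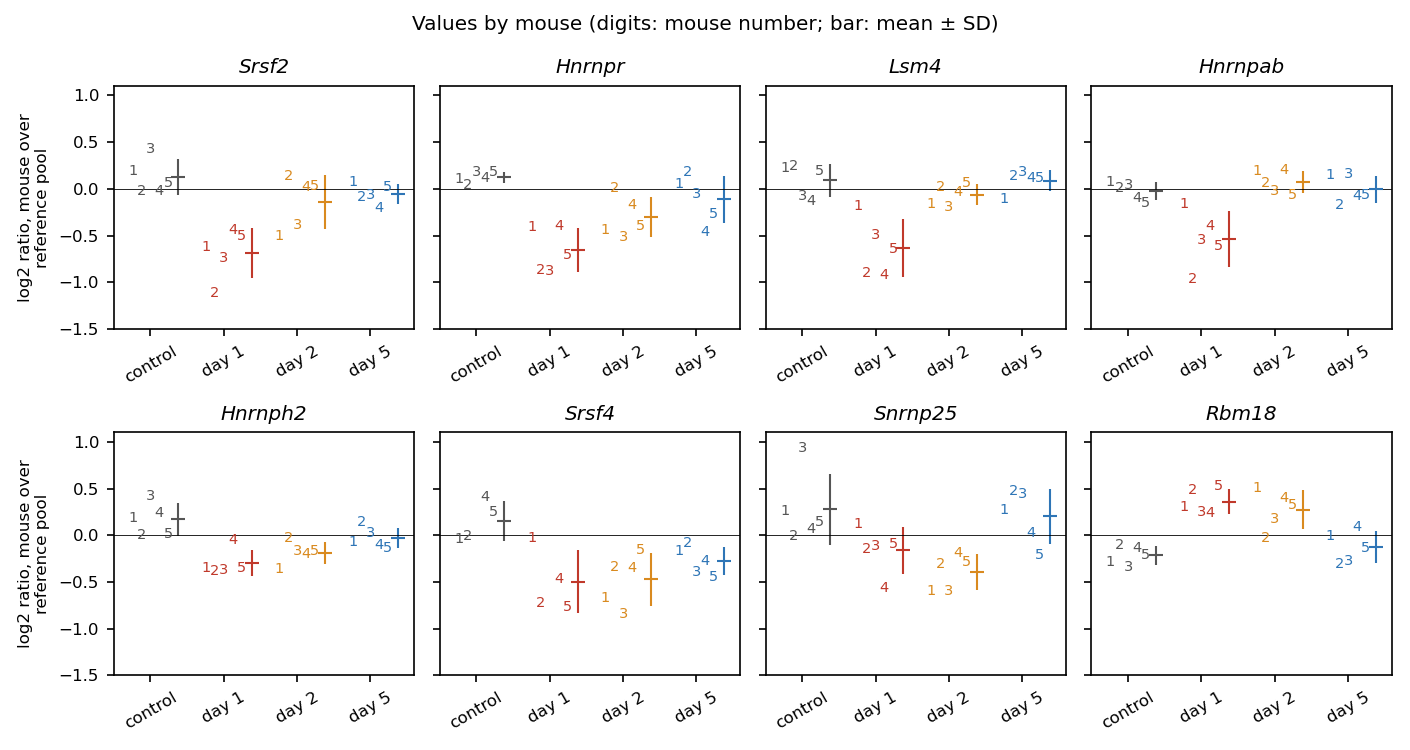
Values of 8 members by mouse, as log2 ratio of mouse over reference pool on the vertical axis and group on the horizontal axis. Digits are mouse numbers and bars are the mean ± SD of a group. Srsf2, Hnrnpr, Lsm4, Hnrnpab and Hnrnph2 show all day 1 mice below all controls, Snrnp25 all day 2 mice below them, and Rbm18 all day 1 and day 2 mice above.

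Among hnRNP proteins, which coat new transcripts and influence exon choice, export and decay, 6 of 7 were lower on day 1 (median -0.51) and 5 of 7 on day 2 (median -0.38). Over all features 8.38% and 9.61% were lower on these days. Hnrnpr read 0.10, 0.045, 0.18, 0.11 and 0.18 in control mice 1 to 5 and -0.41, -0.87, -0.88, -0.39 and -0.71 in day 1 mice 1 to 5. Its later values were -0.44, 0.0060, -0.52, -0.17 and -0.40 in day 2 mice 1 to 5 and 0.048, 0.18, -0.053, -0.46 and -0.27 in day 5 mice 1 to 5. The control mice were close together, and all day 1 and day 2 mice lay below them. Hnrnpr fell to 58.4% of control on day 1 (-0.78 ± 0.13, adjusted p = 0.000635) and to 74.4% on day 2 (-0.43 ± 0.13, adjusted p = 0.0230). The day 2 call was lost without day 2 mice 1 and 3 in turn (-0.37, adjusted p = 0.0700 at the weakest).

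Hnrnph2 belongs to the hnRNP H family, which binds runs of G. It read 0.18, -0.0004, 0.42, 0.24 and 0.012 in control mice 1 to 5 and -0.35, -0.38, -0.37, -0.048 and -0.35 in day 1 mice 1 to 5. On later days the values were -0.36, -0.033, -0.17, -0.20 and -0.17 in day 2 mice 1 to 5 and -0.076, 0.14, 0.020, -0.10 and -0.13 in day 5 mice 1 to 5. All day 1 and day 2 mice lay below all controls, and day 5 overlapped with control. The differences were -0.47 ± 0.10, adjusted p = 0.00324 on day 1 and -0.36 ± 0.10, adjusted p = 0.0163 on day 2, the latter lost without control mouse 3 and day 2 mouse 1 in turn (-0.31, adjusted p = 0.0566 at the weakest).

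Hnrnpab, an A/B-type hnRNP, was low on day 1 and not on day 2. It read 0.069, 0.0065, 0.045, -0.097 and -0.15 in control mice 1 to 5 and -0.16, -0.97, -0.55, -0.40 and -0.62 in day 1 mice 1 to 5. Then came 0.19, 0.067, -0.022, 0.20 and -0.063 in day 2 mice 1 to 5 and 0.14, -0.18, 0.15, -0.079 and -0.069 in day 5 mice 1 to 5. Every day 1 mouse lay below every control, though mouse 1 only just, and mouse 2 was lowest. The day 1 difference was -0.51 ± 0.12, adjusted p = 0.00489, the day 2 difference 0.099 ± 0.12, adjusted p = 0.619, and the rise from day 1 to day 2 0.61 ± 0.12, adjusted p = 0.00574. Hnrnpm had values in 3 day 1 mice. They were -1.17, -0.78 and -0.26 in day 1 mice 2, 3 and 4, against -0.088, -0.14, -0.050 and -0.18 in control mice 1, 2, 3 and 5. It fell on day 1 (-0.62 ± 0.16, adjusted p = 0.00976) and was higher on day 2 than on day 1 (0.58 ± 0.15, adjusted p = 0.0425). Both calls were lost without day 1 mouse 2, where the differences became -0.41 (adjusted p = 0.0720) and 0.37 (adjusted p = 0.213), and the second call also without any of 12 other mice (control mice 1, 2, 3 and 5, day 1 mouse 3, day 2 mice 1 to 5 and day 5 mice 1 and 2).

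Hnrnpll, known for its control of the alternative exons of the leukocyte antigen CD45, changed in both directions over time. Its values were -0.0092, -0.13, -0.11, 0.50 and -0.077 in control mice 1 to 5 and -0.44, -0.38, -0.44, -0.13 and -0.22 in day 1 mice 1 to 5. They went on as -0.76, -0.38, -0.38, -0.27 and -0.51 in day 2 mice 1 to 5 and 0.39, 0.34, 0.44, 0.50 and 0.53 in day 5 mice 1 to 5. Control mouse 4 stood apart from the other controls, day 2 lay below all controls, and the day 5 mice lay above all controls but mouse 4. It fell on day 1 (-0.36 ± 0.12, adjusted p = 0.0370) and day 2 (-0.50 ± 0.12, adjusted p = 0.00531), and was higher on day 5 than on day 2 (0.90 ± 0.12, adjusted p = 1.08e-05) and on day 1 (0.76 ± 0.12, adjusted p = 6.56e-05). The day 1 call was lost without control mice 1 and 4 and day 1 mice 1, 2 and 3 in turn (-0.24, adjusted p = 0.115 at the weakest). It was also lost in 5 of 14 other settings of the processing or fit, among them quantile normalization. The day 5 difference from control did not pass (0.40 ± 0.12, adjusted p = 0.0716), but did without control mouse 4 (0.52, adjusted p = 0.00534).

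Hnrnpd, also called AUF1, binds AU-rich elements of unstable messengers. It read -0.11, 0.10, 0.017, -0.36 and 0.076 in control mice 1 to 5 and -0.31, -0.43, -0.40, -0.45 and -0.58 in day 2 mice 1 to 5. Control mouse 4 overlapped with the day 2 mice, and the other 4 controls lay above them. The difference was -0.22 ± 0.11, adjusted p = 0.161 on day 1 and -0.38 ± 0.11, adjusted p = 0.0180 on day 2, and Hnrnpd was higher on day 5 than on day 2 (0.42 ± 0.11, adjusted p = 0.00825). Hnrnpdl, its close relative, fell on day 1 (-0.52 ± 0.17, adjusted p = 0.0336) and day 2 (-0.49 ± 0.17, adjusted p = 0.0441) with wide spread among mice, 0.55, 0.14, 0.36, 0.68 and -0.14 in control mice 1 to 5 and 0.37, -0.086, -0.44, -0.20 and -0.63 in day 1 mice 1 to 5. Its day 1 call was lost without any of control mice 1, 3 and 4 and day 1 mice 2, 3 and 5 (-0.41, adjusted p = 0.106 at the weakest) and its day 2 call without any of control mice 1, 3 and 4, day 2 mice 1, 3, 4 and 5 and day 5 mice 1 and 3 (-0.40, adjusted p = 0.123 at the weakest).

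U2af1, the small U2AF subunit that reads the AG at the end of the intron, was the only U2AF subunit with an array symbol. It read 0.29, 0.18, 0.46, 0.17 and -0.052 in control mice 1 to 5 and 0.44, -0.55, -0.22, -0.31 and -0.37 in day 1 mice 1 to 5. The later values were -0.27, 0.060, -0.10, 0.27 and 0.10 in day 2 mice 1 to 5 and 0.29, 0.095, 0.39, 0.41 and 0.26 in day 5 mice 1 to 5. Day 1 mouse 1 lay just under the highest control, and the other 4 day 1 mice were below all controls. The difference on day 1 was -0.41 ± 0.15, adjusted p = 0.0492, just under the threshold, and the call was lost when any of 16 of the 20 mice was left out, the exceptions being control mouse 5, day 1 mouse 1 and day 2 mice 1 and 4. At the weakest, without day 1 mouse 2, it was -0.32, adjusted p = 0.150. U2af1 was higher on day 5 than on day 1 (0.49 ± 0.15, adjusted p = 0.015), which was lost without day 1 mouse 2 (0.41, adjusted p = 0.0561). The branch point proteins Sf3a1 and Sf3b1 passed in no limma comparison and had no unadjusted p under 0.05 against control. Sf3b1, the largest SF3B subunit, differed by -0.031 ± 0.091, -0.096 ± 0.091 and -0.13 ± 0.091 on days 1, 2 and 5, and Sf3a1 by -0.25 ± 0.13, 0.11 ± 0.14 and -0.065 ± 0.13.

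Sm proteins form the ring that holds the small nuclear RNA, and the 6 with values were Snrpb, Snrpd1, Snrpd2, Snrpe, Snrpg and Snrpn. Of the 13 Sm and snRNP-specific proteins measured, 4 were lower and 1 higher on day 1 (30.8% and 7.69%, median -0.36), against 8.38% and 10.7% of all features. On day 2, 1 was lower and 1 higher (7.69% each, median -0.059), close to the 9.61% of all features in each direction. Snrpe read 0.29, 0.097, 0.84, -0.070 and 0.32 in control mice 1 to 5 and -0.14, -0.29, -0.19, -0.78 and -0.20 in day 1 mice 1 to 5. It went on with -0.28, 0.29, 0.23, 0.089 and 0.41 in day 2 mice 1 to 5 and 0.11, 0.44, 0.56, 0.25 and 0.56 in day 5 mice 1 to 5. All day 1 mice lay below all controls, with day 1 mouse 4 lowest. Snrpe fell to 65.3% of control on day 1 (-0.62 ± 0.16, adjusted p = 0.0102) and was higher on day 5 than on day 1 (0.70 ± 0.16, adjusted p = 0.00218).

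Snrpd2 read 0.36, 0.27, 0.52, 0.25 and 0.61 in control mice 1 to 5 and 0.24, -0.069, -0.13, -1.23 and 0.047 in day 1 mice 1 to 5. Its later values were 0.31, 0.56, 0.53, 0.87 and 0.36 in day 2 mice 1 to 5 and -0.0032, 0.55, 0.53 and 0.52 in day 5 mice 1, 2, 3 and 5. All day 1 mice lay below all controls, mouse 1 only just and mouse 4 by far the most. The fall on day 1 (-0.63 ± 0.19, adjusted p = 0.0271) shrank to -0.38 (adjusted p = 0.0502) without day 1 mouse 4 and was no longer called, nor was it without control mouse 3 or 5 (-0.58, adjusted p = 0.0628 without the last). Snrpd2 was higher on day 2 than on day 1 (0.76 ± 0.19, adjusted p = 0.0392), a call lost without any of control mouse 1, day 1 mice 3 and 4 and day 2 mice 2, 3, 4 and 5 (0.67, adjusted p = 0.129 at the weakest), and higher on day 5 than on day 1 (0.63 ± 0.21, adjusted p = 0.0286), lost without any of day 1 mouse 4 and day 5 mice 2, 3 and 5 (0.57, adjusted p = 0.0776 at the weakest). Without day 1 mouse 4 the last difference was 0.38 (adjusted p = 0.0542).

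The same day 1 mouse 4 was lowest for Snrpd1, Snrpd2, Snrpe, Snrpg and Lsm4. Snrpd1 read 0.26, 0.10, 0.26, -0.47 and 0.29 in control mice 1 to 5 and -0.15, -0.47, -0.13, -1.14 and -0.19 in day 1 mice 1 to 5. For Snrpg the values were 0.0022, 0.0033, -0.49 and 0.20 in control mice 1, 2, 4 and 5 and -0.41, -0.68, -0.26, -1.35 and -0.12 in day 1 mice 1 to 5. In both genes control mouse 4 was the lowest control and overlapped with the day 1 mice. Against control on day 1 neither passed (Snrpd1 -0.51 ± 0.18, adjusted p = 0.0571, Snrpg -0.49 ± 0.20, adjusted p = 0.0903). Without control mouse 4 both did, at -0.64 (adjusted p = 0.0199) for Snrpd1 and -0.63 (adjusted p = 0.0462) for Snrpg. Snrpd1 also passed without day 1 mouse 1 (-0.57, adjusted p = 0.0346) or day 2 mouse 2 (-0.51, adjusted p = 0.0485). Leaving out day 1 mouse 4 instead, far below the other day 1 mice in both genes, makes both day 1 differences smaller. Both were higher on day 5 than on day 1, Snrpd1 by 0.73 ± 0.18, adjusted p = 0.00527 and Snrpg by 0.86 ± 0.19, adjusted p = 0.00199, with all day 5 mice above all day 1 mice.

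**Figure D3:**
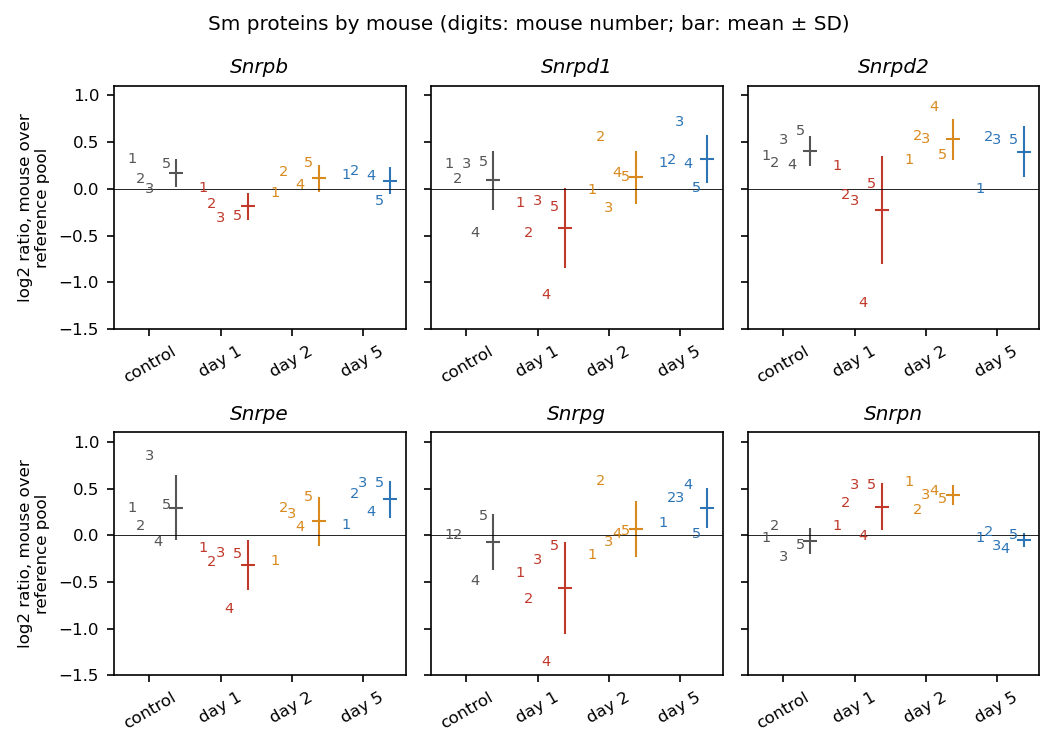
Values of the 6 Sm proteins by mouse, as log2 ratio of mouse over reference pool, with digits for mouse numbers and bars for the mean ± SD of each group. Day 1 mouse 4 is the lowest point of Snrpd1, Snrpd2, Snrpe and Snrpg, and Snrpn moves the other way, with day 2 above all controls.

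Snrpn, which codes for the SmB-like protein SmN and is best known from brain and from its imprinted locus, was the 1 Sm gene that rose. It read -0.029, 0.10, -0.23 and -0.10 in control mice 1, 2, 3 and 5 and 0.097, 0.35, 0.54, -0.0031 and 0.54 in day 1 mice 1 to 5. The following values were 0.57, 0.27, 0.43, 0.48 and 0.39 in day 2 mice 1 to 5 and -0.029, 0.040, -0.12, -0.14 and -0.0013 in day 5 mice 1 to 5. Day 1 mice 1 and 4 overlapped with control, and all day 2 mice lay above all controls and all day 5 mice. The rise was 0.37 ± 0.12, adjusted p = 0.0300 on day 1 and 0.49 ± 0.12, adjusted p = 0.00513 on day 2, and Snrpn was lower on day 5 than on day 2 (-0.48 ± 0.11, adjusted p = 0.00308). Its day 1 call was lost without any of control mice 1, 3 and 5 and day 1 mice 2, 3 and 5 (0.31, adjusted p = 0.0954 at the weakest). That call was also lost in 3 of 13 other settings of the processing or fit, among them quantile normalization. Snrpb, which codes for the near-identical SmB, moved the other way on day 1 (-0.36 ± 0.12, adjusted p = 0.0393), a call lost without any of control mice 1, 2 and 5 and day 1 mice 2, 3 and 5 (-0.31, adjusted p = 0.116 at the weakest). The Snrpb call was also lost in 5 of 13 other settings of the processing or fit, among them either set of technical replicate arrays alone. Probe sequences were not used here, so how far each probe also reads the other transcript cannot be told apart.

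Snrpc, a protein of the U1 snRNP that meets the 5′ splice site, fell on day 1 (-0.52 ± 0.15, adjusted p = 0.0198). It read 0.18, 0.028, 0.29 and 0.033 in control mice 1, 2, 3 and 5 and 0.11, -0.73, -0.52 and -0.42 in day 1 mice 1, 2, 3 and 4, and day 1 mouse 1 overlapped with control. That call was lost without control mouse 3 and day 1 mice 2 and 3 in turn (-0.41, adjusted p = 0.0817 at the weakest). Snrpa, also of the U1 snRNP, differed on day 1 by -0.24 (adjusted p = 0.161), and Snrnp40 of the U5 snRNP by -0.33 (adjusted p = 0.0749), and neither passed on any day. Snrpb2, the U2B″ protein of the U2 snRNP, had values in 3 mice of 3 groups, differed from control on day 2 by -0.47 ± 0.16, adjusted p = 0.0510, and was higher on day 5 than on day 2 (0.54 ± 0.16, adjusted p = 0.0229), lost without day 2 mouse 4 and day 5 mouse 4 in turn (0.35, adjusted p = 0.127 at the weakest). Snrnp27, of the tri-snRNP, was higher on day 5 than on day 1 (0.28 ± 0.093, adjusted p = 0.0319), lost without any of day 1 mice 2, 4 and 5 and day 5 mice 1, 3 and 5 (0.24, adjusted p = 0.0828 at the weakest).

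Snrnp25 and Snrnp35 belong to the U11 and U12 particles of the minor spliceosome, which removes a rare class of introns. Snrnp25 read 0.26, -0.012, 0.93, 0.070 and 0.14 in control mice 1 to 5 and 0.12, -0.15, -0.11, -0.57 and -0.091 in day 1 mice 1 to 5. Then it read -0.60, -0.30, -0.60, -0.19 and -0.28 in day 2 mice 1 to 5 and 0.27, 0.48, 0.45, 0.028 and -0.21 in day 5 mice 1 to 5. All day 2 mice lay below all controls, and control mouse 3 stood above the rest. Snrnp25 fell to 62.7% of control on day 2 (-0.67 ± 0.17, adjusted p = 0.00643), differed on day 1 by -0.44 ± 0.17, adjusted p = 0.0636, and was higher on day 5 than on day 2 (0.60 ± 0.17, adjusted p = 0.0113). Snrnp35 differed by 0.13 ± 0.098 on day 1 and 0.037 ± 0.10 on day 2, with adjusted p of 0.393 and 0.852.

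Lsm4 belongs both to the nuclear LSm ring on U6 RNA and to the cytoplasmic ring that aids mRNA decay, and it was the 1 of 4 LSm proteins that fell on day 1. It read 0.22, 0.24, -0.075, -0.13 and 0.19 in control mice 1 to 5 and -0.18, -0.91, -0.49, -0.93 and -0.64 in day 1 mice 1 to 5. Later it read -0.17, 0.015, -0.19, -0.036 and 0.067 in day 2 mice 1 to 5 and -0.11, 0.14, 0.18, 0.12 and 0.11 in day 5 mice 1 to 5. All day 1 mice lay below all controls, mouse 1 the least, and day 5 lay above all day 1 mice. Lsm4 fell to 60.7% of control on day 1 (-0.72 ± 0.12, adjusted p = 0.000716), was at -0.15 ± 0.12, adjusted p = 0.429 on day 2, and rose from day 1 to day 2 (0.57 ± 0.12, adjusted p = 0.0116). That rise was called with any mouse left out, but not with only days 1 and 2 in the fit (adjusted p = 0.0626). Lsm14a, a P-body protein linked to translational repression, fell on day 2 (-0.44 ± 0.14, adjusted p = 0.0270), when it read -0.82, -0.51, -0.67, -0.43 and -0.36 in day 2 mice 1 to 5 against -0.032, -0.26, -0.10, -0.22 and 0.047 in control mice 1 to 5, without overlap. That call was lost without control mice 1 and 5 and day 2 mice 1 and 3 in turn (-0.38, adjusted p = 0.0895 at the weakest), and the day 1 difference (-0.33 ± 0.14, adjusted p = 0.101) passed without day 1 mouse 1 (-0.45, adjusted p = 0.0118). Lsm1, of the decay ring alone, and Lsm11, of the U7 snRNP for histone transcripts, differed on day 1 by 0.12 (adjusted p = 0.407) and 0.22 (adjusted p = 0.391).

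The 4 PRPF proteins measured were Prpf4, Prpf6, Prpf8 and Prpf19, and limma called none of them against control on day 1 or 2, with none at an unadjusted p under 0.05 on either day. Prpf8, the scaffold of the catalytic centre, differed by -0.32 ± 0.16, -0.11 ± 0.16 and -0.36 ± 0.16 on days 1, 2 and 5. Its control mice were spread widely, at 0.22, -0.38, 0.64, 0.19 and 0.40 in control mice 1 to 5, and without control mouse 2 the day 1 difference passed (-0.47, adjusted p = 0.0278). Prpf19, a ubiquitin ligase of the spliceosome, differed by 0.028 ± 0.11, 0.17 ± 0.11 and -0.012 ± 0.11, and the tri-snRNP protein Prpf6 by -0.013 ± 0.10, 0.079 ± 0.10 and -0.024 ± 0.10. Prpf4, of the U4/U6 particle, was lower on day 5 than on day 1 (-0.35 ± 0.11, adjusted p = 0.0260), a call lost without day 1 mouse 2 and day 5 mouse 3 in turn (-0.23, adjusted p = 0.0941 at the weakest).

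Rbm18, an RNA-binding protein of little known function, was the member with the largest rise. It read -0.28, -0.10, -0.34, -0.13 and -0.21 in control mice 1 to 5 and 0.30, 0.48, 0.24, 0.24 and 0.53 in day 1 mice 1 to 5. The later values were 0.50, -0.026, 0.18, 0.39 and 0.33 in day 2 mice 1 to 5 and -0.0032, -0.31, -0.28, 0.086 and -0.13 in day 5 mice 1 to 5. Every day 1 and day 2 mouse lay above every control, and day 5 overlapped with control. Rbm18 rose 1.49-fold on day 1 (0.58 ± 0.11, adjusted p = 0.00128) and 1.40-fold on day 2 (0.49 ± 0.11, adjusted p = 0.00332), and was lower on day 5 than on day 2 (-0.40 ± 0.11, adjusted p = 0.00979).

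Rbm39, a U2AF-related splicing factor and coactivator, was lower on day 1 (-0.50 ± 0.17, adjusted p = 0.0411) and day 2 (-0.51 ± 0.17, adjusted p = 0.0362). It read -0.12, -0.18, 0.68, 0.0042 and 0.18 in control mice 1 to 5 and -0.25, -0.45, -0.72, -0.14 and -0.36 in day 1 mice 1 to 5, so control mouse 3 was far above the rest and the groups overlapped. The day 1 call was lost without any of control mice 3, 4 and 5 and day 1 mice 2, 3 and 5 (-0.35, adjusted p = 0.138 without control mouse 3), and the day 2 call without any of control mice 3 and 5 and day 2 mice 1 and 3 (-0.39, adjusted p = 0.129 at the weakest). Rbm10, a splicing regulator related to Rbm5, fell on day 1 (-0.36 ± 0.11, adjusted p = 0.0286), lost without control mice 1 and 5 and day 1 mice 2 and 5 in turn (-0.27, adjusted p = 0.0990 at the weakest). Rbm5 itself differed by -0.12 ± 0.13 on day 1 and -0.35 ± 0.13 on day 5 (adjusted p = 0.209), when its 3 measured mice lay below all controls. Rbm7, which guides the nuclear exosome, was higher on day 5 than on day 2 (0.38 ± 0.14, adjusted p = 0.0453) and on day 1 (0.46 ± 0.14, adjusted p = 0.0156). The first of these calls was lost without any of control mice 1, 2 and 3, day 1 mice 3 and 5, day 2 mice 1 and 3 and day 5 mice 2, 3, 4 and 5 (0.32, adjusted p = 0.134 at the weakest). Its 2 probes differed in size on day 1, at -0.13 and -0.40. Rbm12, Rbm14 and Rbm19 differed on day 1 by 0.041, 0.16 and 0.11, with adjusted p of 0.838, 0.299 and 0.648. For Rbm14, a paraspeckle protein, the probes disagreed in sign on day 1, at -0.096 and 0.42.

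Between treated days, 5 members were higher on day 2 than on day 1 (Hnrnpab, Hnrnpm, Lsm4, Snrpd2 and Srsf2) and none lower, where 2.1% of all features were called, 1.36% higher and 0.736% lower. The median over members was 0.097, against -0.018 over all features. All of these 5 are among the 10 called lower on day 1 and not on day 2. The same day 1 mice enter both comparisons, and day 5 against day 1 as well, so such an overlap is partly built in. For the other 5 of the 10 the day 2 value was higher by 0.47 in Snrpe, 0.32 in Snrpc, 0.30 in Snrpb, 0.21 in U2af1 and 0.096 in Rbm10, which did not pass, and the 3 called lower on day 2 and not on day 1 did not differ by the test between these days either, as in Snrnp25 at -0.23 (adjusted p = 0.629). Day 5 against day 2 gave 7 calls, 5 higher (Hnrnpll, Snrnp25, Snrpb2, Hnrnpd and Rbm7) and 2 lower (Snrpn and Rbm18), with 20.8% of all features called, 10.3% higher and 10.5% lower. Day 5 against day 1 gave 18, of which 15 were higher and 3 lower, with 25.3% of all features called, 12.2% higher and 13.1% lower. The 15 were Snrpg, Hnrnpll, Snrpd1, Lsm4, Snrpe, Srsf2, Snrpd2, Hnrnpm, Hnrnpr, Hnrnpab, U2af1, Rbm7, Snrpc, Srsf9 and Snrnp27, and the 3 were Rbm18, Snrpn and Prpf4. In Snrpc (0.44 ± 0.14, adjusted p = 0.0271) that call was lost without day 1 mice 2 and 3 and day 5 mouse 3 in turn (0.33, adjusted p = 0.120 at the weakest), in Srsf9 (0.42 ± 0.14, adjusted p = 0.0268) without day 1 mouse 2 and day 5 mice 2, 3 and 4 in turn (0.36, adjusted p = 0.0832 at the weakest), in Snrpn (-0.35 ± 0.11, adjusted p = 0.0206) without day 1 mice 3 and 5 in turn (-0.30, adjusted p = 0.0672 at the weakest) and in Hnrnpm (0.61 ± 0.16, adjusted p = 0.00718) without day 1 mouse 2 (0.39, adjusted p = 0.0669).

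On day 5 the members with an unadjusted p under 0.05 against control were Srsf4 (-0.43 ± 0.16, adjusted p = 0.210), Hnrnpll (0.40 ± 0.12, adjusted p = 0.0716), Rbm39 (-0.39 ± 0.17, adjusted p = 0.356), Prpf8 (-0.36 ± 0.16, adjusted p = 0.345) and Rbm5 (-0.35 ± 0.13, adjusted p = 0.209). Hnrnpll is the 1 that was above control.

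Single mice moved the counts. On day 1 the number of members called ranged from 9 to 22 as each of the 20 mice was left out in turn. The share of all features called moved with it, from 11.7% to 24.6%. The members called were 9 without day 1 mouse 2 (8 lower, 1 higher, with 12.0% of all features called), 11 without day 1 mouse 3 (11.7%), and 12 without day 1 mouse 5, control mouse 1 or control mouse 3. On day 2 the count ranged from 6 to 13 and the share of all features from 11.2% to 21.1%, with 6 members without day 2 mouse 1 (11.2%) and 7 without day 2 mouse 3 (13.1%). With control mouse 4 and day 1 mouse 1 left out together, 24 members were called on day 1 (22 lower, 2 higher), where 22.3% of all features were called, and 11 on day 2, where 18.6% were. On day 1 Hnrnpab, Hnrnph2, Hnrnpr, Lsm4, Snrpe, Srsf2 and Rbm18 were called in all 14 other settings and with any mouse left out. On day 2 this held for Hnrnpd, Hnrnpll, Snrnp25 and Rbm18. Srsf4 on both days and Snrpn on day 2 were called in the 13 settings that could test them and with any mouse left out, since with values in 4 control mice they were not tested where all 5 mice needed one.

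**Figure D4:**
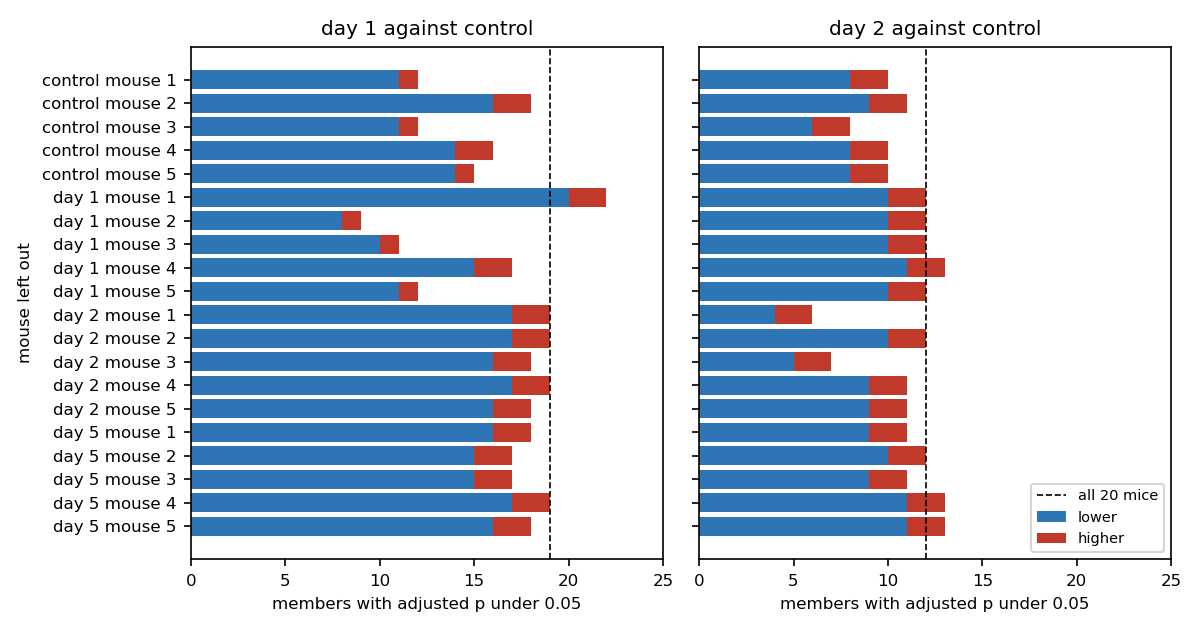
Number of members with an adjusted p under 0.05 against control as each of the 20 mice is left out in turn, blue for lower and red for higher, on day 1 and day 2. Dashed lines mark the counts with all mice, 19 and 12. The shortest bars are day 1 mouse 2 on day 1 and day 2 mouse 1 on day 2.

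For 27 members with a value in every mouse, the mean over members was 0.0016 to 0.18 in control mice, -0.35 to -0.078 on day 1, -0.21 to 0.027 on day 2 and 0.0036 to 0.080 on day 5. All day 1 mice lay below all control mice, mouse 2 the most and mouse 1 the least. On day 2 mice 1 and 3 were low, and mouse 2 overlapped with control. Proliferation genes, a list chosen with earlier results of these data known, were also lower on days 1 and 2. Of the 14 measured 12 were lower on day 1 (median -0.74), 9 on day 2 (median -0.705) and none on day 5, where none had an unadjusted p under 0.05 either. The mean of the 10 proliferation genes with values in every mouse was 0.0019 to 0.29 in control, -0.86 to -0.33 on day 1, -0.91 to -0.39 on day 2 and -0.033 to 0.27 on day 5. The members' median difference from control was -0.32 on day 1 and -0.10 on day 2, and that of the proliferation genes -0.74 and -0.705. In the direct comparison of day 2 with day 1, the median difference was 0.0971 over members and 0.0997 over proliferation genes. Of the 14 proliferation genes, 2 were called higher and 1 lower on day 2 than on day 1, with 1.36% and 0.736% of all features. Joint movement was not tested. Day 1 mouse 2 was again lowest and mouse 1 highest of their group, and day 2 mice 1 and 3 were again lowest. The part of proliferating cells in the members' changes was not tested.

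**Figure D5:**
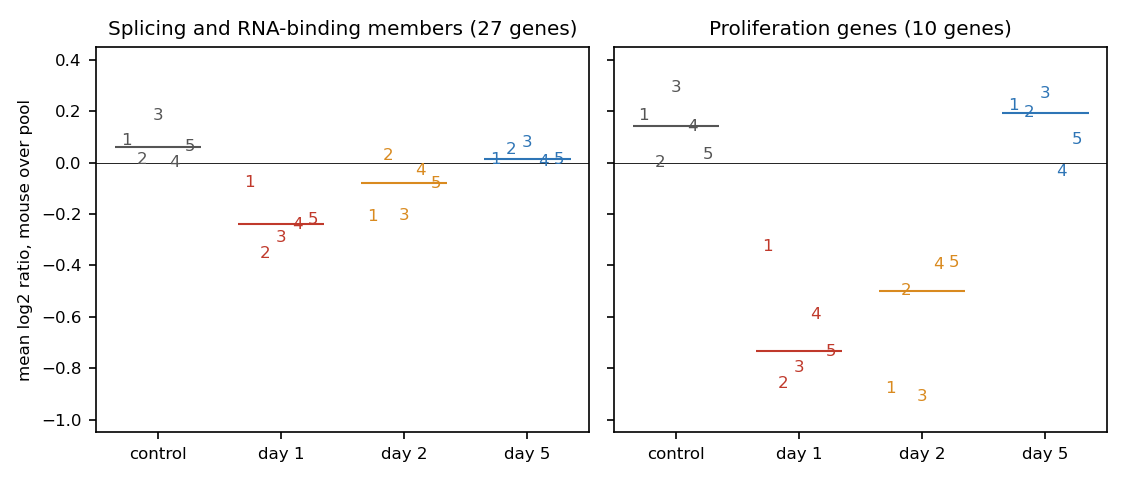
Mean log2 ratio of mouse over pool, by mouse, for 27 members (left) and 10 proliferation genes (right) with values in all 20 mice. Digits are mouse numbers and lines are group medians. Both panels put all day 1 mice below all controls and day 5 back near control, and day 1 mouse 1 and day 2 mice 1 and 3 stand apart in both.

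Marker genes of marrow cell types also differed between the groups, and the list means given here are over the genes with values in all 20 mice (4 of the 6 measured for macrophages, 5 of 6 endothelial and stromal, 4 of 8 neutrophil and 3 of 5 B cell genes). Of 6 measured macrophage genes 3 were higher on day 1 and 6 on day 2, with list means by mouse of -0.44 to 0.20 in control, 0.30 to 0.80 on day 1 and 0.80 to 1.27 on day 2. Endothelial and stromal genes were higher for 3 of 6 on day 1 and 5 of 6 on day 2 (means -0.22 to -0.088 in control, 0.30 to 0.70 on day 1, 0.24 to 0.81 on day 2), and megakaryocyte genes for 1 of 3 and 2 of 3. Of 8 neutrophil genes 1 was lower and 1 higher on day 1 and 4 were lower on day 2 (means -0.17 to 0.096 in control, -1.64 to -1.07 on day 2). Of 5 B cell genes 2 were lower and 1 higher on each of days 1 and 2, and of 10 erythroid genes 1 was higher on day 1 and 3 were lower on day 2. On day 5, 4 of the 5 B cell genes were lower (means -2.0 to -1.08, against -0.21 to 0.058 in control), and 2 neutrophil genes were lower and 1 higher. The single T cell gene measured did not pass on any day. How far these shifts in cell types enter the members' values was not tested. Ratios against a pool hold no level, so the labelled tissue could not be checked against absent markers.

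Outside the naming rule, 43 of 139 other RNA-processing genes of a list chosen with earlier results known were measured. On day 1, 8 were lower and 2 higher (median -0.17), on day 2, 4 were lower and none higher (median -0.14, 16 with an unadjusted p under 0.05), and on day 5 limma called 0, with 2 at an unadjusted p under 0.05. The share lower was 18.6% on day 1, against 8.38% of all features, and 9.3% on day 2, close to the 9.61% of all features. Nudt21, a subunit of the cleavage factor that sets poly(A) sites, fell on day 1 (-0.67 ± 0.15, adjusted p = 0.00477) and day 2 (-0.59 ± 0.15, adjusted p = 0.00913). So did Bcas2, a partner of Prpf19 (-0.55 ± 0.12, adjusted p = 0.00385 on day 1, -0.36 ± 0.12, adjusted p = 0.0406 on day 2). Pabpn1, the nuclear poly(A) binding protein, fell on day 1 (-0.56 ± 0.17, adjusted p = 0.0249), as did Acin1 of the exon junction complex (-0.52 ± 0.15, adjusted p = 0.0189). Srpk2, a kinase of SR proteins, fell on day 2 (-0.80 ± 0.20, adjusted p = 0.00643), and so did the helicase Dhx16 (-0.40 ± 0.13, adjusted p = 0.0356). Higher on day 1 were Txnl4a, a U5 protein (0.37 ± 0.12, adjusted p = 0.0294), and Pspc1 of paraspeckles (0.36 ± 0.12, adjusted p = 0.0423).

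Of the 29 symbols with too few values, 17 had none in any mouse, among them Srsf1, Srsf3, Hnrnpc, Snrnp70, Snrpa1, Sf3a2, Rbm8a and Rbm38. Hnrnpa2b1 had values in 3 control mice and in no treated mouse. Hnrnpk and Hnrnpu had values in 12 mice each, Srsf5 and Lsm2 in 11 each, and Hnrnpl, Prpf4b and Snrnp48 in 10 each, but not in 3 of every group. The reason for a blank was not given in the sources, so a blank is not read as a low level. Hnrnpa1, Srsf7, Snrnp200, U2af2 and Rbm3, which were also to be named, were not among the 73 symbols on the array that met the rule. Probes annotated with several symbols were not counted there.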

How the data were processed

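The authors' deposited values are 1 log2 ratio per probe and array (the base is an assumption), Cy5 mouse RNA over the Cy3 pool. Per the labels' protocols, RNA was extracted with a Qiagen kit and amplified with amino allyl labelling. Scanner, background correction, normalization and the filter that left 40.7% to 69.7% of probes blank per array were not stated, or not given in the sources used here. Array medians lie within 0.015 of 0, and of the 780 pairs of arrays 0 correlated below -0.3. Of 13443 probes, 10032 had 1 symbol, 170 several and 3241 none.

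The 2 arrays of a mouse were averaged, then probes of 1 symbol. Features with values in at least 3 mice of every group were fitted in limma 3.58.1 (R 4.3.3) with 1 mean per group over all 20 mice, empirical Bayes moderation and Benjamini-Hochberg adjustment over all features within a comparison, and called at an adjusted p under 0.05. No value was filled in. Precision rests on 5 mice per group. The fit was run on simulated data with known changes and independent noise of its own estimated spread. That checks the code, not how the fit behaves with noise that genes of a mouse share. The labels tie the mouse numbers to nothing shared, and the number was not used as a pairing. Same-numbered mice deviated together in 8 of 30 pairs (r over 0.1, range -0.39 to 0.33). These included 4 of 5 pairs between days 2 and 5 and 3 of 5 between control and day 1. Alternatives covered array averaging, filters, probe choice, normalization, ratios shared by many probes of an array, a replicate block, weights, priors, the groups fitted and each mouse left out.

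The members and lists were chosen with earlier results of these data known. The naming rule took up to 10 called rises and 10 called falls for each day against control, up to 5 of each between days, a fixed list of genes, and up to 4 called genes each way from the other RNA-processing list. Members outside it, such as Snrpb, Rbm10 and Snrnp27, are named to account for all members, after their values were seen. Promoter sequences are RefSeq's, for GRCm38.p6.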

Additional observations from a re-analysis of the deposited data

Results flagged for a closer look

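Some mice lay far from the rest of their group by Dixon's test at the 95% level. This held in 9 of the 114 groups of members and days tested. Only members taken by the naming rule were tested, so mice of other members that lay as far out are not listed. Chance alone gives about 1 in 20 groups. The rule took many members for being called, and groups of different members share mice, so the count was not compared with that rate. Control mouse 4 was high for Hnrnpll (0.50) and low for Snrpd1 (-0.47) and Prpf4 (-0.072). Day 1 mouse 4 was low for the Sm proteins Snrpd2 (-1.23) and Snrpe (-0.78) and high for Hnrnph2 (-0.048). Day 5 mouse 1 was low for Lsm4 (-0.11) and Snrpd2 (-0.0032), and day 2 mouse 2 was high for Sf3a1 (0.35). These are log2 ratios of mouse over pool.

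The effect of treatment differed between days in the members below by limma's adjusted test of the difference. From day 1 to day 2 the log2 difference was 0.61 for Hnrnpab, 0.58 for Hnrnpm, 0.57 for Lsm4, 0.76 for Snrpd2 and 0.54 for Srsf2. From day 2 to day 5 it was 0.90 for Hnrnpll, 0.60 for Snrnp25, 0.54 for Snrpb2, 0.42 for Hnrnpd, 0.38 for Rbm7, -0.40 for Rbm18 and -0.48 for Snrpn. From day 1 to day 5 it was 0.86 for Snrpg, 0.76 for Hnrnpll, 0.73 for Snrpd1, 0.72 for Lsm4, 0.70 for Snrpe, -0.49 for Rbm18, -0.35 for Snrpn and -0.35 for Prpf4.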

How the results depend on the processing

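No member called in a comparison changed its direction under any of the settings run. With no single mouse left out, some calls against control were still lost in other settings. On day 1 these were Hnrnpll and U2af1 (5 of 14 each), Snrpb (5 of 13), Srsf6 (4 of 14) and Snrpn (3 of 13). Hnrnpdl and Rbm39 (2 of 14 each), Snrpd2 (2 of 13) and Rbm10 (1 of 14) followed. On day 2 they were Rbm39 (4 of 14), Hnrnpdl and Srsf6 (2 of 14 each) and Lsm14a (1 of 14). Members called on day 1 were 19 with all mice, 11 with only the 2 groups compared in the fit (14.7% of all features called), and 9 to 22 with 1 mouse left out (11.7% to 24.6% of all features). Called on day 2 were 12, and 6 to 13 with 1 mouse left out (11.2% to 21.1% of all features). On day 5 the count was 0, and 1 after quantile normalization, 1 with the replicate block, 2 with array weights, 0 to 1 with 1 mouse left out and 1 with control mouse 4 and day 1 mouse 1 left out together, an alternative chosen after seeing the data. Hnrnpll is the gene called in each of these, with Rbm5 added under weights. Day 2 against day 1 gave 5, and 2 on the technical replicate 2 arrays alone, 3 when all 5 mice of each group needed a value, 3 with the replicate block, 1 with only the 2 groups in the fit, and 2 to 6 with 1 mouse left out. With the replicate block, day 1 gave 18, day 2 gave 12 and the F test 21. With it Rbm39 (adjusted p = 0.05004) and U2af1 (0.0563) on day 1, Srsf2 (0.0537) and Snrpd2 (0.0517) on day 2 against day 1 and Snrpb2 (0.127) on day 5 against day 2 were no longer called, and Snrpd1 on day 1 (0.0470) and Hnrnpll on day 5 (0.0381) were. The labels tie the numbers to nothing shared, and same-numbered mice correlated over 0.1 in 8 of 30 pairs, 4 of 5 between days 2 and 5 and 3 of 5 between control and day 1. The counts of day 5 against day 2 (5 to 8), day 5 against day 1 (12 to 26) and the F test (16 to 31) stayed within 1.5 times of 7, 18 and 21. Why calls were lost was not tested, beyond there being fewer mice or groups. Precision is limited by 5 mice per group, and at a median standard error of 0.13 small differences cannot be seen.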
